A study of Mus musculus with 2 samples.

Results

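Circular RNAs (circRNAs) of 4 genes that control poly(A) tails and translation, Cnot6l, Pan3, Gigyf2 and Larp4b, were examined in crypts from the small intestine of wild-type mice. Every entry of the circRNA table whose gene name was one of the 4 was taken, which gave 6 of 1132 listed circRNAs. Total RNA of crypts was sequenced in 2 libraries (replicates 1 and 2) that form 1 group, with no treatment and no other genotype. The titles name crypts and the cell type entry names intestinal stem cells. The labels name no strain, age or sort. Whether each library had its own animals is not stated, so the spread between them may be technical. A circRNA is recognised by reads across the back-splice junction, where the end of an exon is joined backwards to the start of its own or a preceding exon. The listed back-splice reads numbered 3546 in replicate 1 and 4441 in replicate 2. CPM values are scaled to these totals, and a single read counted as 282 CPM in the first library and 225 CPM in the second. A junction read is counted at a single join, so levels were not divided by the length of the circle. Whether circles of different length are detected equally well was not measured. A listed 0 may hide a single read, because 372 of 373 circRNAs with 2 reads in all had both in 1 library. Single reads were not always hidden, as 41 circRNAs were listed on a single read in all. Because of this doubt, no fold is given against a listed 0.

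The poly(A) tail of an mRNA is bound by poly(A)-binding protein, which favours translation and protects the message. The PAN2-PAN3 complex and the CCR4-NOT complex shorten the tail, after which the cap is removed and the message is degraded. Cnot6l encodes a catalytic deadenylase subunit of CCR4-NOT, and Pan3 encodes the subunit that recruits the PAN2 nuclease to tails bound by poly(A)-binding protein. Gigyf2 encodes a scaffold that works with the cap-binding protein 4EHP, the product of Eif4e2, to repress translation. Larp4b encodes a La-related protein that binds mRNA and poly(A)-binding protein, and it is described in human cells as favouring mRNA stability and translation. These are roles of the linear mRNAs and their proteins, and the table measured circles only.

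The 6 junctions are shown first, because they are what each read count stands for. Each has 15 bases up to the back-splice in lower case and the 15 bases after it, the start of the first exon of the circle, in capitals, 5′ to 3′ on the gene's strand. The bases come from the GENCODE M21 transcripts (mm10). The capitals show that the 3 junctions of Gigyf2 lead into the same exon.
Cnot6l exons 2 to 4: ctctaggtttaacagACTAATAGGGATGCC
Pan3 exons 2 to 4: tcccagagaaggaagTTCCGGGAATGGATG
Gigyf2 exons 4 to 8: gaagaaaagatgtagGCTCCGTGCTCTGTC
Gigyf2 exons 4 to 5: acagaagaagagcagGCTCCGTGCTCTGTC
Gigyf2 exons 4 to 6: cttcaagagggcgagGCTCCGTGCTCTGTC
Larp4b: ccagctttgactcagGTTCTTACAGTCTTG
None of the 6 sequences of 30 bases was found in an annotated linear transcript. The closest stretch in the related genes Cnot6, Gigyf1 and Larp4, and for Pan3 in its partner gene Pan2, differed from them at 11 to 13 of the 30 bases. How close an unrelated gene would come was not examined.

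Cnot6l had the highest level of the 4 hosts. Its single circRNA (ENSMUSG00000034724, minus strand, chr5:96128943-96134132, mm10) had 23 reads in replicate 1 and 38 in replicate 2, which is 6486 and 8557 CPM. The mean of 7521 ± 1464 CPM (SD, n = 2) placed it 15th of 1132 circRNAs. Both libraries held it at a high level, with replicate 2 somewhat above replicate 1. Replicate 2 was 1.32-fold higher in CPM (95% interval from the Clopper-Pearson limits 0.766 to 2.32), and the difference did not pass an exact binomial test of the reads against the library totals (two-sided, p = 0.306, p = 0.530 after Benjamini-Hochberg adjustment over all circRNAs). Next above it in mean level was a circRNA of Cds1, named together with Gm43273, at 8142 ± 50.9 CPM. Next below was a circRNA of Alg12, a mannosyltransferase gene, at 6845 ± 2102 CPM, and Cnot6l differed from both by less than its own SD.

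The Cnot6l circle joined the end of exon 4 to the start of exon 2 of 12, with exon lengths of 122, 187 and 86 bases and 395 bases in all. In Cnot6l-202, the matching transcript with the longest coding sequence, these exons were coding throughout and held codons 2 to 134 of 555. In 3 other matching transcripts, Cnot6l-203, Cnot6l-204 and Cnot6l-210, the start codon lay inside exon 2, with 10 bases of the exon before it. The part around the back-splice is printed, exon 4 in lower case and then exon 2 in capitals, because the frame from this ATG comes back close to its own start.
Cnot6l exon 4 to exon 2: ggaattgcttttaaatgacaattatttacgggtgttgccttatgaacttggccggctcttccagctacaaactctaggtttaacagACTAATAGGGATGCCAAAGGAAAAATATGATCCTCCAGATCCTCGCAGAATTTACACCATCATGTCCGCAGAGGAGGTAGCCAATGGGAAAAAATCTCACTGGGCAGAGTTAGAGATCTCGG
From the ATG, at base 11 of the circle, the frame ran 385 bases to the junction without a stop codon and met a TAA 2 bases past it, after 129 codons. This holds for the 395 bases given above. A further matching transcript, Cnot6l-201, annotated for nonsense-mediated decay, would give a circle of 391 bases, whose frame was not read. The introns on either side were long, 27559 bases upstream and 22637 bases downstream. Among the 1008 circRNAs with both ends at splice sites of 1 transcript, 79.6% had a shorter upstream and 79.8% a shorter downstream intron.

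Pan3 also gave 1 circRNA, and its reads were uneven. The circle (ENSMUSG00000029647, plus strand, chr5:147450653-147455188, mm10) had 6 reads in replicate 1 and 25 in replicate 2, or 1692 and 5629 CPM. Its mean was 3661 ± 2784 CPM (SD, n = 2), 42nd of 1132, and most of its reads came from replicate 2. Replicate 1 held 19.4% of its reads (95% Clopper-Pearson interval 7.45 to 37.5%), against 44.4% of all listed reads. The CPM was 3.33-fold higher in replicate 2 (interval 1.33 to 9.92), with an unadjusted p of 0.00581 in the exact binomial test. After Benjamini-Hochberg adjustment over all circRNAs the p was 0.263, so the difference did not pass. Adjusted over all host genes the p was 0.171 in the same exact test, and with DESeq2 size factors it was 0.0486. These factors were equal (1.41 in both libraries), so they left the larger listed total of replicate 2 uncorrected. The neighbours of Pan3 in mean level were even between the libraries, with 14 and 15 reads for a circRNA of Lmbr1 (named with Gm23801) at 3663 ± 403 CPM and 13 and 16 reads for one of Sel1l3 at 3634 ± 44.8 CPM.

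The Pan3 circle ran from exon 2 to exon 4 of 19, with exons of 122, 67 and 71 bases and a spliced length of 260 bases. A shorter spliced length was found for 15.6% of the 1008 circRNAs at splice sites, whose median was 368 bases. It lay within the coding sequence, at codons 144 to 230 of 887 in Pan3-209, and the same 3 exons formed the circle in Pan3-201 and Pan3-205. The whole circle is printed with exons 2 and 4 in capitals, as the shortest complete sequence among the well-covered members.
Pan3 circle: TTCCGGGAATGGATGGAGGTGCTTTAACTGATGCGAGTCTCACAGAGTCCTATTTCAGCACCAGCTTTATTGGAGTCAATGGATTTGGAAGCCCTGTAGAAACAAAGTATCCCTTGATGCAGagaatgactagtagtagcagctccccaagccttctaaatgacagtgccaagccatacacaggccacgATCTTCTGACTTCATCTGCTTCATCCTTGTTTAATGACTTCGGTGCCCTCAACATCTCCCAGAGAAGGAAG
Read on in the host frame, it met a stop codon 24 bases past the junction. The flanking introns measured 19643 bases upstream and 11747 bases downstream, against medians of 11220.5 and 8216 bases.

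Among the 4 hosts, Gigyf2 alone had 3 circRNAs. Every read of these was in replicate 2, as it was for Larp4b (0 and 5 reads). The circle of exons 4 to 8 (ENSMUSG00000048000, plus strand, chr1:87364104-87380008, mm10) had 0 reads in replicate 1 and 22 in replicate 2, or 4954 CPM. That of exons 4 to 5 (chr1:87364104-87365279) had 0 and 4 reads, or 901 CPM in replicate 2. The circle of exons 4 to 6 (chr1:87364104-87374111) had 0 reads and 1 read, and is among 41 circRNAs listed on a single read. In replicate 2 the sum was 27 reads and 6080 CPM, above Pan3 in that library, while replicate 1 listed no Gigyf2 circRNA. The leading circle held 81.5% of the host's reads (95% Clopper-Pearson interval 61.9 to 93.7%), and the others held 14.8% (4.19 to 33.7%) and 3.70% (0.0937 to 18.97%). Such intervals cover counting error only and take each read as independent. Whether molecular identifiers were used is not known here, and without them several reads may come from 1 molecule.

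The exons 4 to 8 circle was the member circRNA that passed the test between the libraries (exact binomial test with Benjamini-Hochberg adjustment, p = 0.000671, higher in replicate 2). Over all circRNAs 1.59% passed in either direction and 0.442% with the higher level in replicate 2. The other Gigyf2 circles had adjusted p of 0.434 and 1 in the same exact test, at 4 reads and 1 read. Summed over the gene, Gigyf2 passed at an adjusted p of 4.18e-05 over 885 host genes (exact binomial test), where 2.26% of hosts passed in either direction and 0.791% with the higher level in replicate 2. With each listed 0 taken as 1 read, the adjusted p of the exons 4 to 8 circle was 0.00676 (exact binomial test). This test compares 2 libraries of 1 group against counting error and says nothing of a condition. It takes reads as independent, so its p would be too small if several reads came from 1 molecule.

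Abundant circRNAs missing from 1 library were few. Of 77 circRNAs with at least 20 reads, a limit chosen after the counts were seen, 4 (5.19%) were listed at 0 in 1 library. They were the Gigyf2 circle of exons 4 to 8, 2 features of the RNase P RNA gene Rpph1 (90 and 0, and 31 and 0 reads) and 1 of the ribosomal RNA gene CT010467.1 (0 and 101 reads). Gigyf2 was the single one of these at splice sites of 1 transcript, where there were 72 circRNAs with at least 20 reads. Among 94 host genes with at least 20 reads, the same 3 genes (3.19%) were listed at 0 in 1 library. Fewer cells that make the circle and fewer circles per cell cannot be told apart in such bulk libraries.

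All 3 Gigyf2 circles began at exon 4 of 29 in Gigyf2-201 and ended at exon 5, 6 or 8. Of 29 hosts with 3 circRNAs at splice sites, 3 had 1 end common to all of them, and Picalm and Ndfip2 were the others. Spliced lengths were 226, 341 and 494 bases for 2, 3 and 5 exons. The circles covered codons 14 to 89, 14 to 128 and 14 to 179 of 1291, so each shorter circle was contained in the longer ones. The longest, which carries the difference between the libraries, is printed around its back-splice, with exons 7 and 8 in lower case and the shared exon 4 in capitals.
Gigyf2 exons 7 and 8 to exon 4: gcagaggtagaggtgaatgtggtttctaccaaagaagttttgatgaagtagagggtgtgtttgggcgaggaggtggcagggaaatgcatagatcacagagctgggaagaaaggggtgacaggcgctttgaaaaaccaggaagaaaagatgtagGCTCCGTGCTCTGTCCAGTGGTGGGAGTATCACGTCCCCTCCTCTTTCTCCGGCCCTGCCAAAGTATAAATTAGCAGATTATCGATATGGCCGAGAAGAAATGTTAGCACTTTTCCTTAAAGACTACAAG
The shared upstream intron had 9617 bases. The downstream intron had 8717 bases for the circle ending at exon 5, 4860 bases for exon 6 and 23658 bases for exon 8, so the circle with most reads had the longest downstream intron. With 3 circles of 1 gene this is a description. In the host frame a stop codon followed the junction after 66 bases in the circle of exons 4 to 5 and after 71 bases in the others.

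**Figure D1:**
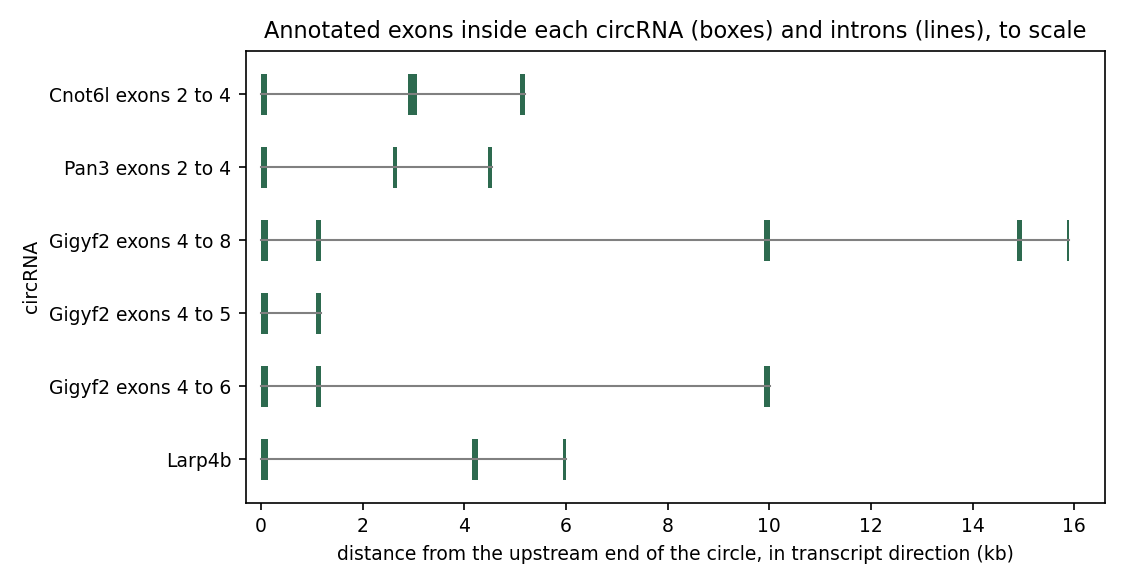
Exons (boxes) and introns (lines) within each circRNA, drawn to scale against the distance in kb from the upstream end of the circle in the direction of transcription. The 3 Gigyf2 circles start at the same exon, and the one of exons 4 to 8 has a genomic span of 15905 bases. The Larp4b exons are drawn from 2 transcripts, Larp4b-206 and Larp4b-202.

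Larp4b had the lowest level of the 4 hosts. Its circRNA (ENSMUSG00000033499, plus strand, chr13:9117966-9123962, mm10) had 0 reads in replicate 1 and 5 in replicate 2, or 1126 CPM. The mean was 563 ± 796 CPM (SD, n = 2), the same as for 28 other circRNAs with 0 and 5 reads. The neighbours in order of level, Nbas and Fars2, were among these. The difference between the libraries did not pass (exact binomial test, unadjusted p = 0.0704, Benjamini-Hochberg adjusted p = 0.433), and at 5 reads it could not be told from counting error.

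The Larp4b circle was the one member whose ends did not belong to a single annotated transcript. Its start was the start of exon 2 of 4 in Larp4b-206, an exon of 140 bases that precedes the coding sequence, and its end was the end of exon 3 of 18 in Larp4b-202. Larp4b-206 stops 31 bases before this end, within an exon that starts at the same base. Across the table, 12 of the 124 circRNAs that were not at splice sites of 1 transcript had both ends at exon edges of the named gene, Larp4b among them. If the exons between the ends were spliced as in Larp4b-206, the circle would measure 319 bases (140, 119 and 60) and would contain the start codon of Larp4b, after 178 bases. The reads cross the junction alone, so the exons inside it, here and in the other circles, are taken from the annotation and were not measured.

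**Figure D2:**
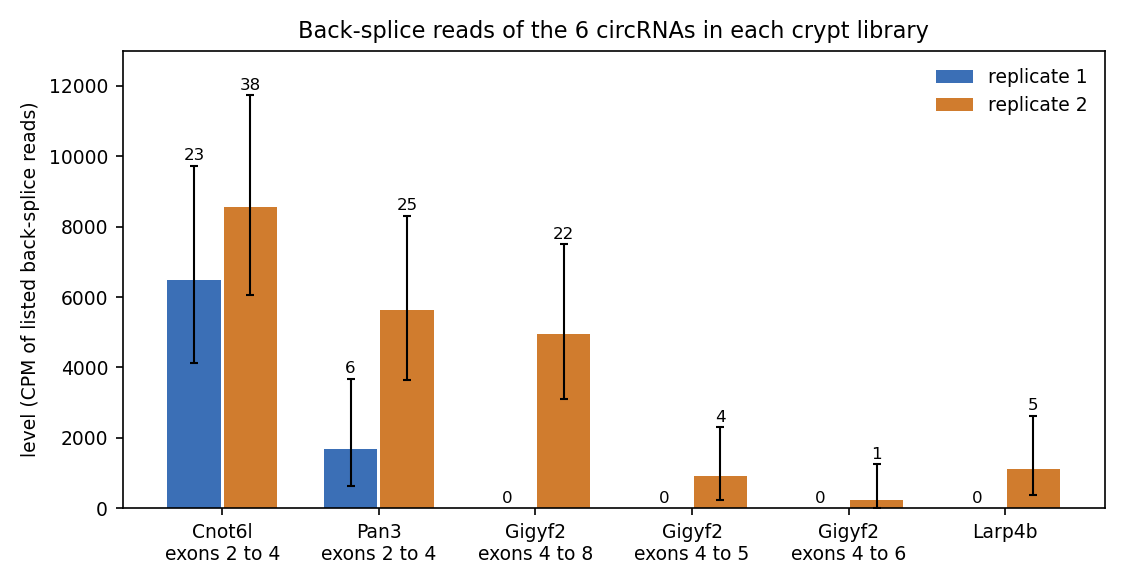
Level of each circRNA (CPM of the listed back-splice reads, vertical axis) in replicate 1 (blue) and replicate 2 (orange), with the read count above each bar and the exact Poisson 95% interval of the count as its error bar. No interval is drawn for a listed 0. Cnot6l, with 23 and 38 reads, is high in both libraries, while Gigyf2 and Larp4b have reads in replicate 2 only.

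The order of the hosts depended on the library. By mean level it was Cnot6l (7521 ± 1464 CPM), Pan3 (3661 ± 2784 CPM), Gigyf2 (3040 ± 4299 CPM) and Larp4b (563 ± 796 CPM), as SD over n = 2. Cnot6l was first in both libraries, Pan3 was second in replicate 1 and Gigyf2 second in replicate 2. Pan3 and Gigyf2 differed in mean by less than the SD of either, and the spread of Gigyf2 also covered the gap to Larp4b. Together the 6 circRNAs took 0.818% of the listed reads in replicate 1 (29 reads) and 2.14% in replicate 2 (95 reads). Without Gigyf2 the shares were 0.818% and 1.53%. All 6 had the higher CPM in replicate 2, as did 51.2% of all circRNAs, and the 3 of Gigyf2 share a gene. Of the 6, 4 were listed at 0 in replicate 1, as were 38.6% of all circRNAs.

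**Figure D3:**
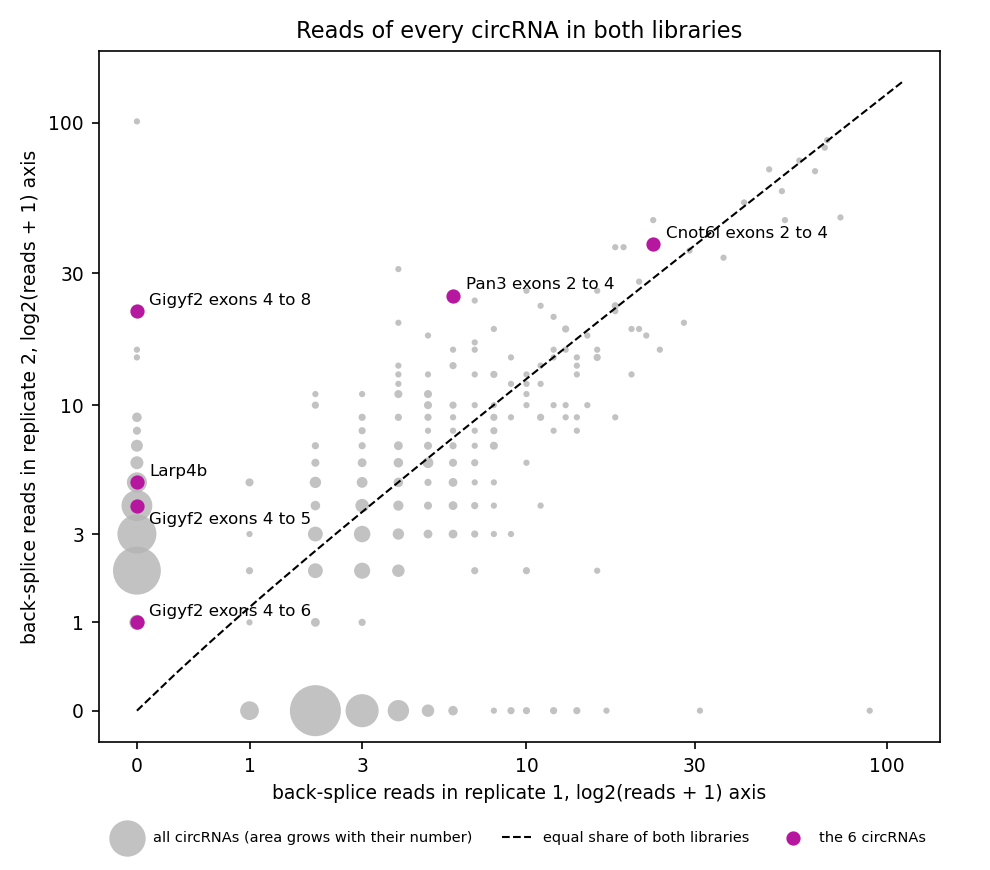
Back-splice reads of each circRNA in replicate 1 (horizontal) and replicate 2 (vertical), on log2(reads + 1) axes labelled in reads, with grey area growing with the number of circRNAs at a point and the dashed line at equal shares of both libraries. Cnot6l lies close to the line, Pan3 (6 and 25 reads) lies above it, and the Gigyf2 circle of exons 4 to 8 stands on the vertical axis at 22 reads.

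The structure of the members can be set beside that of the whole table. Of the 6, 5 had both ends at splice sites of 1 transcript, against 89.0% of all circRNAs. Cnot6l and Pan3 began at exon 2, as did 36.4% of the 1008 circRNAs at splice sites, and Gigyf2 did not in Gigyf2-201, although its exon 4 is exon 2 of Gigyf2-217. The circles of Cnot6l, Pan3 and exons 4 to 6 of Gigyf2 held 3 exons each, as did 29.2% of the 1008. None of the 5 had a length divisible by 3, whereas 33.2% of the 1008 did, so the host frame was not kept across any of these junctions. GC content ran from 43.5% in Cnot6l to 49.9% in the Gigyf2 circle of exons 4 to 6, around a median of 48.8%.

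Other genes of deadenylation, mRNA decay and translation control were then counted from 7 lists with 60 genes, all annotated as protein-coding with more than 1 exon. Of these, 11 (18.3%) hosted a listed circRNA, against 3.98% of 20596 such genes in the annotation. As the 4 members belong to these lists and were chosen with circRNA levels known, this is a description. The 11 hosts had 16 circRNAs, 15 of them at splice sites of 1 transcript and 5 with reads in both libraries. Reads in a single library were common in the whole table too, where 437 of 1132 circRNAs were listed at 0 in replicate 1 and 365 in replicate 2. The exons 4 to 8 circle of Gigyf2 was the 1 that passed the test between the libraries (exact binomial test, adjusted), and 0 of the 10 circRNAs outside the 4 members passed. None of the 10 had an unadjusted p under 0.05 in the exact test either, which 9.36% of all circRNAs had. Several of the 10 had 2 or 3 reads in all, too few to reach such a p in either direction. With so few circRNAs and reads, no contrast with that share is drawn. Of those 10, 7 had the higher CPM in replicate 2.

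Within CCR4-NOT, 3 of 11 subunit genes were hosts. Besides Cnot6l these were Cnot2, a core subunit gene, and Cnot4, which encodes a ubiquitin ligase associated with the complex. Cnot2 had 5 and 13 reads over 3 circRNAs (2169 ± 1073 CPM) and Cnot4 had 5 and 10 reads in 1 (1831 ± 595 CPM), so both had a lower level than Cnot6l in each library. The leading Cnot2 circle spanned exons 2 to 4 of 16, and that of Cnot4 exons 2 to 3 of 12. Of the 9 genes of PAN2-PAN3 and other deadenylases, Pan3 was the single host, and Pan2 was not listed.

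Of the 10 genes of decapping and decay from the 5′ end, 4 were hosts: Dcp2, the decapping enzyme gene, with 5 and 6 reads, Xrn1, the exonuclease gene, with 0 and 5, and Edc4 and Patl1, decapping cofactor genes, with 2 and 0 and with 0 and 2 reads. Paip2, which encodes an inhibitor of poly(A)-binding protein, had 0 and 3 reads and was, with Larp4b, 1 of 2 hosts among 8 genes of poly(A)-binding proteins and their partners. Larp4b was the single host of 7 LARP family genes and Gigyf2 the single host of 6 genes around 4EHP and GIGYF. None of 12 genes for cap binding and translation initiation was a host.

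**Figure D4:**
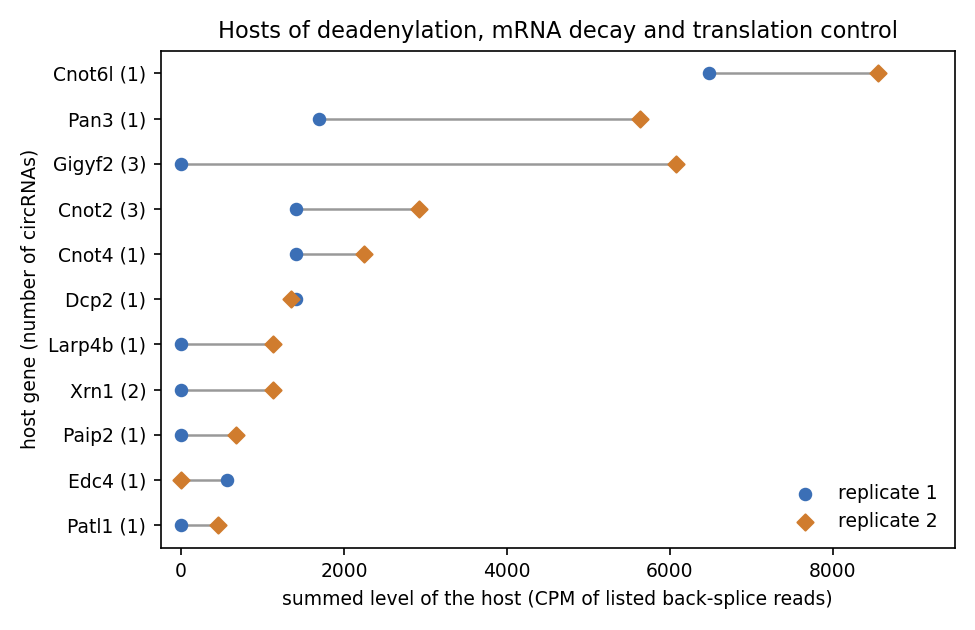
Summed level of each of the 11 hosts (CPM of the listed back-splice reads, horizontal axis) in replicate 1 (blue circles) and replicate 2 (orange diamonds), with the number of circRNAs in brackets and a line joining both libraries. Gigyf2, at 0 and 6080 CPM, has the widest gap of the 11, and Cnot6l has the highest level in each library.

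The cell type named in the labels could not be checked, since the table lists circles and not the expression of marker genes. None of 6 intestinal stem cell marker genes and none of 5 Paneth cell markers was a host. As 3.98% of multi-exon protein-coding genes were hosts, so few markers cannot show whether these cells were present. The counts that follow give no share of cells. Of 9 absorptive enterocyte markers, 8 were hosts, with 124 reads in replicate 1 and 104 in replicate 2. Beside the member results, which were higher in replicate 2, Bub1b, the single host of 6 proliferation markers, had 6 and 38 reads, 3 of 6 immune markers had 4 and 26 reads, and 3 of 5 goblet markers had 9 and 0 reads. None of 6 markers of stroma, muscle and endothelium, 4 enteroendocrine markers and 4 tuft cell markers was a host. Their part in the differences of Gigyf2 and Pan3 was not tested.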

How the data were processed

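Total RNA of wild-type mouse small intestinal crypts was sequenced, per the labels' protocols, in 2 libraries grouped by their titles. The deposited table gave, for each circRNA and library, counts of back-splice junction reads and a normalised signal named CPM, 272 and 233 per read, whose columns sum to 964714 and 1036580, per the file headers and values. The submitters' processing notes name the build mm10. For the aligner, circRNA caller, filters, strand handling and sequencing depth, nothing is given in the sources used here.

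CPM was computed here from the listed counts, whose totals are not sequencing depth. Each circRNA and each named gene was tested with an exact binomial test (SciPy 1.17.1) and Benjamini-Hochberg adjustment over all of them, threshold 0.05, checked on simulated counts. A circRNA with several named genes counted for each. TMM factors (edgeR 4.0.16) and DESeq2 1.42.0 size factors served as alternatives. Structure came from GENCODE M21, preferring protein-coding, basic transcripts with the longest coding sequence. The deposited table types some features as antisense and all 6 members as exon. No columns of sample values were left unused. The members and lists were chosen with earlier results of these data known. Named are all member circRNAs, their neighbours in level and up to 5 other hosts per list. Rpph1, CT010467.1, Picalm, Ndfip2 and the hosts among the cell type markers were named after their values were seen. A further list of adaptor genes is not reported here.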

Additional observations from a re-analysis of the deposited data

How the results depend on the processing

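Levels of the 6 circRNAs stayed within 1 SD of the reported mean under TMM factors, DESeq2 size factors, the authors' deposited values and totals over circRNAs at splice sites. For the circRNAs of Gigyf2 and Larp4b the SD exceeds the mean, so a moderate rescaling could not move them beyond it. TMM factors and the deposited values gave the same levels and count as 1 alternative. The summed mean of the 6 circRNAs, 14785 CPM, ranged from 8178 without replicate 2 to 21392 CPM without replicate 1. The Gigyf2 circle of exons 4 to 8 passed the exact binomial test under every scaling and filter tried for it, with adjusted p from 0.000135 to 0.00676, and it has no value among circRNAs with reads in both libraries. Pan3 as a host passed with DESeq2 size factors alone (adjusted p = 0.0486, range 0.0486 to 0.400, exact binomial test). These factors were the same in both libraries (1.41), so the reads were tested as if the totals of 3546 and 4441 were equal. With a listed 0 taken as 1 read, the Gigyf2 circle of exons 4 to 6 has 1 read in each library and reverses (adjusted p = 1, exact binomial test). The number of hosts that differed between the libraries fell from 20 to 10 with circRNAs at splice sites alone. It was 3 with circRNAs read in both libraries, a setting that leaves out every circRNA listed at 0. A filter of at least 5 reads in total gave 23, and the cause of these changes was not tested. With at least 5 reads in total, the leading Gigyf2 circle holds 100% of the host's reads, because the others drop out. The alternative without Rpph1 and CT010467.1 was chosen after seeing the data (adjusted p = 0.00180 for the Gigyf2 circle of exons 4 to 8, exact binomial test). Leaving out a library leaves no comparison between libraries. No paired analysis was possible because there is a single group. Differences at 5 reads or fewer were not detectable at this depth.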
